A study of Mus musculus with 12 samples.

Results

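The genes described here mark the resident macrophages of liver and brain and the endothelium that lines liver sinusoids. They are Clec4f, Cd5l, Ctss, Csf1r, Cd68, Laptm5, Stab1 and Eng, a list drawn up by gene name with earlier results of these data known. Every probe set whose only platform gene symbol was one of these names was taken, which gave 11 probe sets for 8 genes out of 12422 probe sets tested and 8251 genes with a single symbol. Csf1r, Cd68 and Laptm5 had 2 probe sets each. The study measured total RNA of liver, cortex and cerebellum from 1 adult mouse of the NMR-1 strain on MG_U74Av2 arrays, Affymetrix oligonucleotide arrays of mouse transcripts. The animal carried no named allele or treatment. The 1X groups (liver, cortex and cerebellum, 1 array each) started from 5 µg RNA and a single linear amplification. The 3X groups (the same tissues, 3 technical replicates each) started from 1 ng RNA and 3 linear amplifications with a kit for small samples, so input amount and kit changed along with the number of rounds. Because all 12 arrays came from 1 animal, p-values measure only the spread between arrays.

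Kupffer cells, the macrophages of the liver, sit in the sinusoids, where they take up particles and worn-out blood cells and recycle iron. Microglia are the resident macrophages of the brain. Both depend on signalling through the receptor Csf1r and on the transcription factor PU.1, and both carry a large lysosomal system to which Cd68, Laptm5 and Ctss belong. Liver sinusoidal endothelium is a fenestrated endothelium that removes waste molecules from blood with scavenger receptors such as Stab1. In bulk tissue, a lower signal can come from fewer cells of a type or from less RNA per cell, and these cannot be told apart.

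The upstream sequences of 4 of the genes are shown because they cover the outcomes seen between liver and brain. Clec4f and Eng were higher in liver, Ctss was lower in liver, and Cd68 was not called between tissues. The sequences are the 250 bases before the RefSeq start in build GRCm38.p6, written 5′ to 3′ on the strand of the gene. Capitals mark the PU.1 core motif GAGGAA or its reverse complement TTCCTC. The windows are chr6:83656117-83656366, strand minus, for Clec4f, chr3:95526536-95526785, strand plus, for Ctss, chr11:69666171-69666420, strand minus, for Cd68, and chr2:32646345-32646594, strand plus, for Eng.
Clec4f: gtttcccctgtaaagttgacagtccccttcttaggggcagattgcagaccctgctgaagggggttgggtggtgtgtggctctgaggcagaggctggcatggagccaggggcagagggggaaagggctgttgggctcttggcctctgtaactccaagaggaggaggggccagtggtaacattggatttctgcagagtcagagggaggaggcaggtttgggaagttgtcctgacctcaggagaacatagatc
Ctss: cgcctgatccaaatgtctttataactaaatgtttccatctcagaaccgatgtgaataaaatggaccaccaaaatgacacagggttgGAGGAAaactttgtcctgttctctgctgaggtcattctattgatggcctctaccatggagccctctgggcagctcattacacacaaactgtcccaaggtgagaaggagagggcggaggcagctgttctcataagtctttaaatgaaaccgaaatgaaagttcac
Cd68: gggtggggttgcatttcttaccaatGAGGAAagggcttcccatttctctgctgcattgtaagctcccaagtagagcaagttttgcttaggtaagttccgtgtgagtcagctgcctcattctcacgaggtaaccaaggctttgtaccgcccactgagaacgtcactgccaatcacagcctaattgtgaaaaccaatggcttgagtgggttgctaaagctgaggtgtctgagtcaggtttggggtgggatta
Eng: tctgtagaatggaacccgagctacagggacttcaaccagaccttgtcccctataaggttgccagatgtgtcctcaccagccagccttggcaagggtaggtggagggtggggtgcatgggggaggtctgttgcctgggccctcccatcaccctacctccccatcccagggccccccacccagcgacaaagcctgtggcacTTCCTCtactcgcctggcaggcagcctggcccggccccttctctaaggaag
Searched on both strands, the core motif was in 23.3% of the 32851 upstream windows of the same length in the RefSeq table. Ctss, Cd68 and Eng each had 1 match, beginning 164, 225 and 51 bases before the start. Cd5l, Laptm5 and Stab1 also had 1 match each, and Clec4f had none. The window of Csf1r was not among those read, so nothing is said of its matches. The Eng match lies within the longer form GAGGAAGT, which 2.44% of all windows hold. The E-box TCACGTG of lysosomal gene regulators was in none of the 7 member windows read, against 3.13% of all windows. A match is only a run of letters and shows no binding, and no match says only that these letters are absent from the window.

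Signals are log2 values made by the authors with RMA, which gives no detection call. The array medians lay between 3.45 and 3.48, and many member signals lay near or below them. A difference against so dim a signal is no measured ratio of RNA, so no folds are given. The 3X replicates of a tissue differed by a median SD of 0.14 in liver, 0.11 in cortex and 0.10 in cerebellum over all probe sets. Of 8 hepatocyte markers 7 were higher in liver at 3X, the exception being transthyretin (Ttr, 0.75 ± 0.26 (SE), limma adjusted p = 0.0651), which the choroid plexus also makes. Of 7 neuronal markers 5 were lower in liver. The summed linear signal of the hepatocyte list ran from 11700 to 19600 over the 3 liver 3X arrays and stood at 33600 on the 1X liver array.

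**Figure D1:**
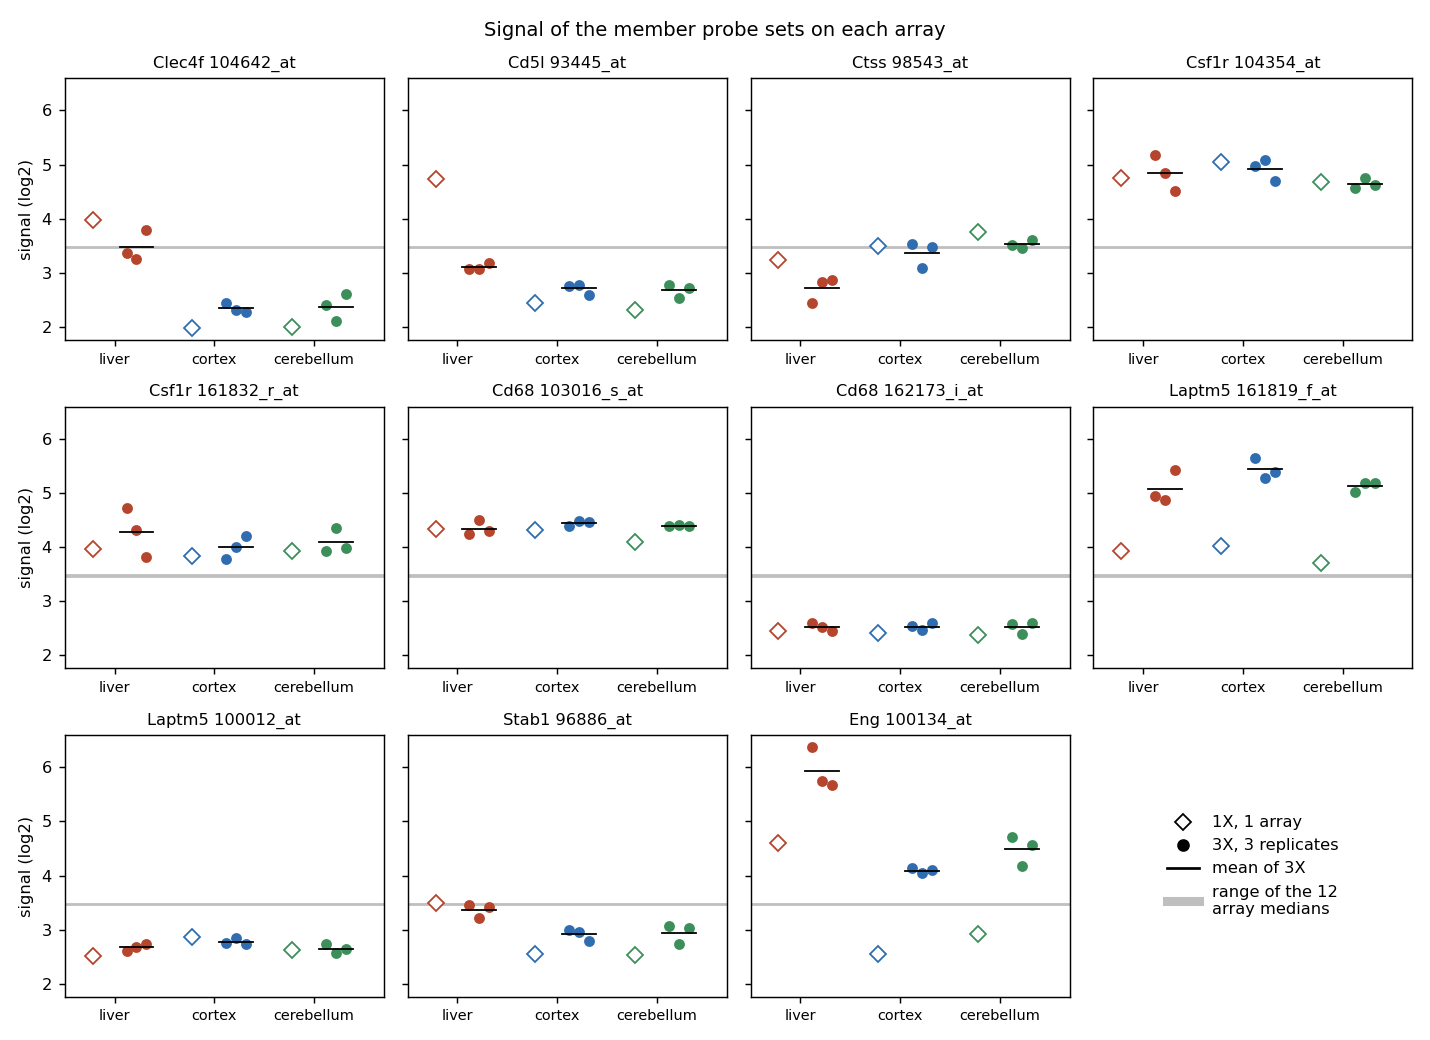
Signal (log2) of each of the 11 member probe sets in liver, cortex and cerebellum, with the 1X array of a tissue as an open diamond, its 3 3X replicates as dots and their mean as a bar. Clec4f, Cd5l, Stab1 and Eng stand higher in liver at 1X and 3X, Ctss stands lower in liver, and Csf1r, Cd68 and Laptm5 overlap between liver and brain at 3X.

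At 3X, the probe sets of Clec4f, Cd5l, Stab1 and Eng were higher in liver than in the mean of cortex and cerebellum, and that of Ctss was lower. The 6 probe sets of Csf1r, Cd68 and Laptm5 did not pass the test. A probe set was called at a limma p under 0.05 after Benjamini-Hochberg adjustment over all 12422, and 20.4% of them were called in this comparison, 8.17% higher and 12.3% lower in liver. Of the 11 member probe sets 4 were higher and 1 lower, and in these 5 the liver and brain arrays did not overlap. Over all probe sets, 9.1% had every liver array above every brain array and 11.3% had every liver array below. The members had a median difference of 0.06 against 0.01 for all probe sets.

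Clec4f encodes a C-type lectin found on Kupffer cells. Its 3X signals were 3.36, 3.25 and 3.79 in liver, 2.43, 2.32 and 2.27 in cortex and 2.40, 2.10 and 2.60 in cerebellum. Every liver array stood above every brain array, and the brain signals lay far below the array medians. The liver minus brain difference was 1.11 ± 0.14 on the log2 scale (SE, 3 against 6 arrays; limma adjusted p = 0.000174). The 1X liver array read 3.98, against 1.98 for cortex and 1.99 for cerebellum. That is a difference of 2.00, larger than at 3X, with no replicate to test it.

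Cd5l encodes a secreted scavenger-like protein that tissue macrophages release and that keeps them alive. On the 1X arrays it stood at 4.73 in liver, 2.44 in cortex and 2.31 in cerebellum. The 3X signals were 3.06, 3.06 and 3.18 in liver, 2.76, 2.77 and 2.60 in cortex and 2.78, 2.54 and 2.72 in cerebellum. Liver was above the array medians at 1X and below them on all 3 arrays at 3X. The groups still did not overlap at 3X, with liver higher by 0.41 ± 0.08 (SE; limma adjusted p = 0.00418), but the single-array difference at 1X was 2.36.

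Ctss, the lysosomal protease cathepsin S of antigen-presenting cells and microglia, was the only member probe set called lower in liver. Its 3X signals were 2.44, 2.83 and 2.87 in liver, 3.53, 3.09 and 3.48 in cortex and 3.51, 3.45 and 3.61 in cerebellum. No liver array reached the lowest brain array, and the difference was -0.73 ± 0.12 (SE; limma adjusted p = 0.00168). The 1X arrays had the same order, with 3.23 in liver, 3.50 in cortex and 3.75 in cerebellum, and a difference of -0.39.

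Csf1r is the receptor for the growth factors that keep macrophages and microglia alive. The 3X signals of probe set 104354_at were 5.19, 4.84 and 4.51 in liver, 4.97, 5.09 and 4.70 in cortex and 4.57, 4.76 and 4.62 in cerebellum, so the tissues overlapped. Its liver minus brain difference was 0.06, with a 95% interval of -0.25 to 0.37 (limma adjusted p = 0.828). The suffix of the second probe set, 161832_r_at, marks probes picked with some selection rules dropped, which may be less specific. It had 4.72, 4.31 and 3.81 in liver, 3.78, 4.01 and 4.20 in cortex and 3.93, 4.35 and 3.99 in cerebellum. The difference was 0.24 (-0.17 to 0.64; limma adjusted p = 0.436). At 1X the first probe set read 4.76 in liver, 5.04 in cortex and 4.69 in cerebellum, and the second 3.96, 3.83 and 3.92. The single-array differences were -0.11 and 0.09.

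Cd68, a heavily glycosylated protein of macrophage lysosomes, had overlapping signals across tissues. With probe set 103016_s_at the liver arrays read 4.24, 4.49 and 4.29, the cortex arrays 4.38, 4.48 and 4.46 and the cerebellum arrays 4.39, 4.42 and 4.39. The difference was -0.08 (95% interval -0.24 to 0.09; limma adjusted p = 0.543). Probe set 162173_i_at was dim on all 12 arrays, between 2.38 and 2.60, and differed by 0.00 (-0.16 to 0.17; limma adjusted p = 0.995). On the 1X arrays the brighter of these probe sets read 4.33, 4.32 and 4.09 in liver, cortex and cerebellum. Whether the probes of either Cd68 probe set also read other transcripts was not tested.

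Laptm5 is a lysosomal membrane protein of blood-derived cells that dampens receptor signalling. Probe set 161819_f_at, whose suffix marks probes shared within a sequence family, read 4.95, 4.88 and 5.42 in liver, 5.65, 5.28 and 5.38 in cortex and 5.02, 5.18 and 5.18 in cerebellum at 3X. Liver replicate 3 lay among the cortex arrays, and the other liver arrays lay below all brain arrays. The difference was -0.20 (95% interval -0.48 to 0.08; limma adjusted p = 0.331). Probe set 100012_at was dim, between 2.52 and 2.87 on all 12 arrays, and differed by -0.04 (-0.19 to 0.12; limma adjusted p = 0.784). At 1X the 161819_f_at signals were 3.92 in liver, 4.03 in cortex and 3.71 in cerebellum.

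Liver replicate 3 decided whether Csf1r 161832_r_at and Laptm5 161819_f_at were called. Without it, Csf1r 161832_r_at was higher in liver by 0.47 (limma adjusted p = 0.0436) and Laptm5 161819_f_at was lower, with a difference of -0.37 (limma adjusted p = 0.0260). The call was then not shared by the other probe set of either gene.

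The endothelial genes were both higher in liver. Stab1 encodes stabilin-1, a scavenger receptor of sinusoidal endothelium and of some macrophages. Its 3X signals were 3.46, 3.22 and 3.42 in liver, 2.99, 2.96 and 2.80 in cortex and 3.07, 2.74 and 3.02 in cerebellum. Liver arrays stood above all brain arrays, by 0.15 at the narrowest, and the mean difference was 0.44 ± 0.10 (SE; limma adjusted p = 0.00841). At 1X the signals were 3.49, 2.54 and 2.53, a difference of 0.95.

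Eng encodes endoglin, a co-receptor of endothelial cells for ligands of the TGF-beta and BMP family. It had the widest separation among the members at 3X. The signals were 6.37, 5.75 and 5.67 in liver, 4.13, 4.05 and 4.09 in cortex and 4.71, 4.18 and 4.56 in cerebellum. The lowest liver array was 0.96 above the highest brain array, and the difference was 1.64 ± 0.16 (SE; limma adjusted p = 3.2e-05). At 1X it was 1.87, from 4.61 in liver, 2.56 in cortex and 2.91 in cerebellum.

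**Figure D2:**
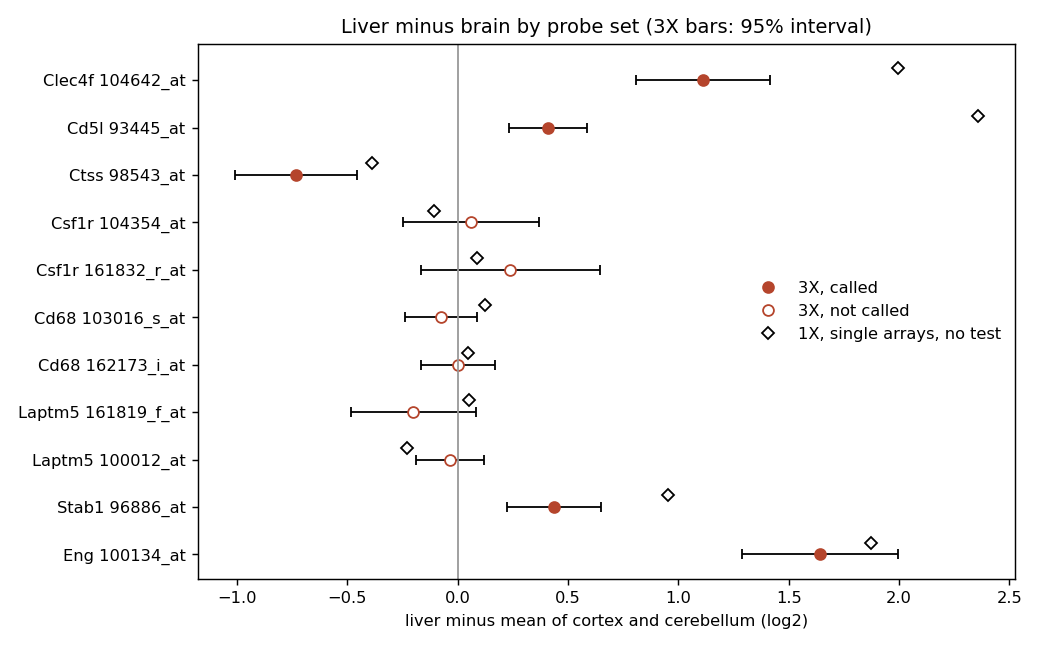
Liver minus the mean of cortex and cerebellum (log2) for each member probe set, with 3X differences as dots with their 95% interval and single-array 1X differences as diamonds. Clec4f, Cd5l, Stab1 and Eng lie above 0 at 1X and 3X, with the 1X difference farther from 0 in each, and Ctss lies below 0.

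Set against each brain region alone, the same 5 probe sets were called, against a background of 16.8% for cortex (6.64% higher and 10.1% lower in liver) and 16.6% for cerebellum (6.38% and 10.2%). Clec4f was higher by 1.13 ± 0.16 than cortex and by 1.10 ± 0.16 than cerebellum, and Eng by 1.84 ± 0.18 and 1.44 ± 0.18 (SE; limma adjusted p of 0.000678 or lower). Ctss was lower, with a difference of -0.65 ± 0.14 and -0.81 ± 0.14 (SE; limma adjusted p = 0.00978 and 0.00272). Stab1 was higher by 0.45 ± 0.11 and 0.42 ± 0.11 (SE; limma adjusted p = 0.0184 and 0.0250), and Cd5l by 0.39 ± 0.09 and 0.42 ± 0.09 (limma adjusted p = 0.0141 and 0.00951). The Stab1 call against cortex was lost without liver replicate 1 (0.41, limma adjusted p = 0.0593) or cortex replicate 3 (0.39, limma adjusted p = 0.0795). Its call against cerebellum was lost without liver replicate 1 (0.38, limma adjusted p = 0.0819) or cerebellum replicate 2 (0.32, limma adjusted p = 0.0983). The Cd5l call against cortex was lost without cortex replicate 3 (0.34, limma adjusted p = 0.0649).

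No member was called between cortex and cerebellum at 3X by limma, where 1.06% of all probe sets passed, 0.435% in favour of cortex and 0.628% in favour of cerebellum. None had an unadjusted p under 0.05. The lowest limma adjusted p was 0.605. The arrays of the 2 regions did not overlap for 3 of the 11 probe sets, against 7.87% of all probe sets without overlap and higher in cortex and 8.56% lower. The cortex minus cerebellum difference of Eng was -0.39 (95% interval -0.80 to 0.02), and -0.36 on the 1X arrays. For Laptm5 it was 0.31 (-0.02 to 0.64) with 161819_f_at and 0.13 (-0.05 to 0.31) with 100012_at, and 0.32 and 0.24 at 1X. All 4 kidney transcripts examined (Kap, Miox, Umod and Slc34a1) had higher mean signals in cerebellum than in cortex at 1X and at 3X, the direction of Eng and the reverse of Laptm5. Kap, an androgen-regulated kidney gene, had a mean 3X signal of 6.01 in cerebellum and 4.96 in cortex, and 8.66 and 4.92 at 1X. Their part in the Eng and Laptm5 values was not tested.

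The 3X procedure left 9 of the 11 member probe sets uncalled in the additive model of tissue and amplification and raised 2, those of Eng and one of Laptm5. Over all probe sets 56.9% were called by limma, 37.5% higher and 19.5% lower at 3X, and the median of all was 0.12 higher in the deposited values, 0.08 higher with quantile normalization and 0.13 higher with median centring. The median of the members was 0.11. Eng rose by 1.48 ± 0.15 (SE, 9 3X against 3 1X arrays; limma adjusted p = 2.05e-05), by 1.32 in liver, 1.54 in cortex and 1.57 in cerebellum. Laptm5 161819_f_at rose by 1.33 ± 0.12 (limma adjusted p = 9.7e-06), by 1.16, 1.41 and 1.42. The other Laptm5 probe set, 100012_at, stood 0.03 ± 0.06 above its 1X level (limma adjusted p = 0.692), so the probe sets of this gene gave different answers. Whether the probes of 161819_f_at also read other transcripts was not tested. On 3 of the 11 probe sets, those of Eng, Laptm5 161819_f_at and Cd68 162173_i_at, the 1X array lay below all 3X arrays in each tissue, as it did for 36.9% of all probe sets. On none did it lie above them in each tissue, as it did for 15.9%.

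Cd5l differed between the procedures in a tissue-dependent way. It was 1.63 lower at 3X than at 1X in liver, from 4.73 to a mean of 3.10, and 0.27 and 0.37 higher in cortex and cerebellum. The interaction of amplification with tissue was called for Cd5l (moderated F = 74.9, limma adjusted p = 7.84e-05) and for none of the other 10 probe sets, against 10.4% of all, or 13.2% in a single contrast of liver against brain. For Clec4f the 3X mean minus the 1X array gave -0.51 for liver, 0.36 for cortex and 0.38 for cerebellum (F = 5.25, limma adjusted p = 0.173). Without liver replicate 3, whose signal was nearest to 1X, Clec4f was called as well (F = 11.5, limma adjusted p = 0.0186). For Stab1 these values were -0.12, 0.37 and 0.42 (F = 3.62, limma adjusted p = 0.323). The summed signal of the hepatocyte list was also lower at 3X in liver, as given above, and its part in the Cd5l value was not tested. The interaction test assumed that the lone 1X array of a tissue varies like the 3X replicates.

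Clec4f, Cd5l and Eng had a liver minus brain difference of at least 1 at 1X, which 6.54% of all probe sets had in favour of liver and 6.65% in favour of brain. In all 3 it was smaller at 3X with the same sign. This was shared by 86.7% of the 1638 probe sets with so large a difference at 1X. When the liver arrays were left out, 6 member probe sets were called between 1X and 3X in the brain regions, where 57.4% of all probe sets were called, so their share is near that of all. Stab1 was higher at 3X by 0.40 (limma adjusted p = 0.00727), Clec4f by 0.37 (limma adjusted p = 0.0210), Cd5l by 0.32 (limma adjusted p = 0.0118) and Cd68 103016_s_at by 0.22 (limma adjusted p = 0.0326). The 3X minus 1X value of Ctss was -0.29 ± 0.12 (SE; limma adjusted p = 0.0584), and it passed only without cortex replicate 1 among the arrays left out in turn (-0.33, limma adjusted p = 0.0422).

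**Figure D3:**
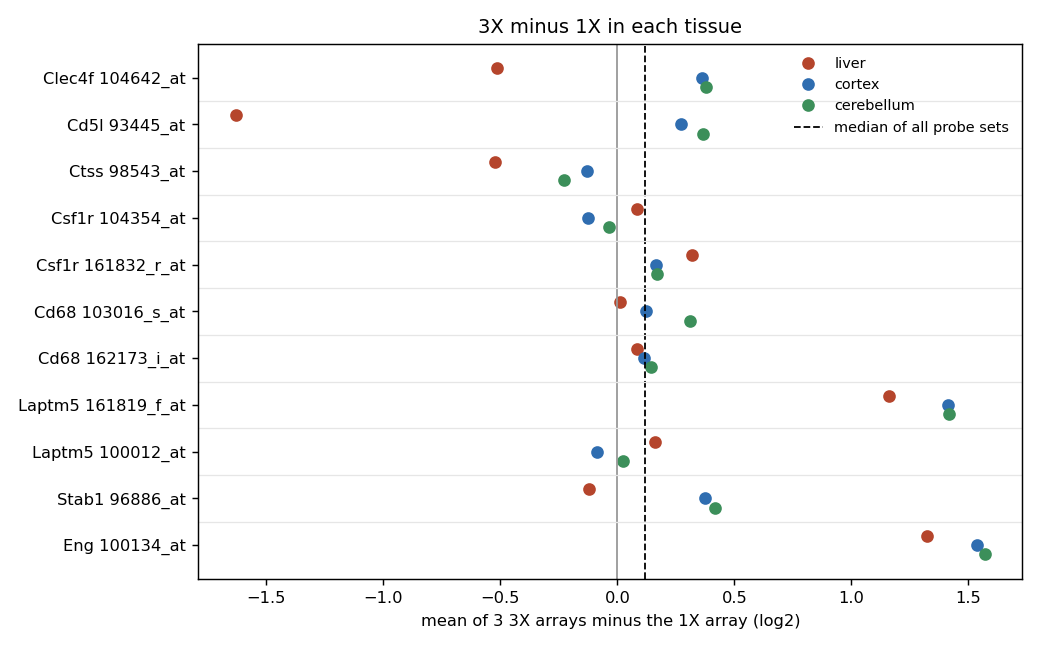
Mean of the 3 3X arrays minus the 1X array (log2) in liver, cortex and cerebellum for each member probe set, with the median of all probe sets as a dashed line. Eng and Laptm5 161819_f_at lie above 1 in every tissue, and Cd5l, Clec4f and Stab1 lie below 0 in liver and above 0 in the brain regions.

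The other genes of these cell types were counted from lists written from textbook knowledge, with earlier results of these data known. The brightest probe set stood for a gene. For these and the later list counts between liver and brain, the shares over all probe sets were 8.17% higher and 12.3% lower in liver. Of 10 measured Kupffer cell genes 3 were higher in liver at 3X and none lower, namely Clec4f, Cd5l and Nr1h3, an oxysterol receptor that hepatocytes also express (0.88 ± 0.08 (SE), limma adjusted p = 2.64e-05). The list median was 0.24. Without the members Clec4f and Cd5l, 1 of 8 genes was higher, with a median of 0.16, where 8.17% of all probe sets were higher. The scavenger receptors Marco and Msr1 were not called, with differences of 0.04 and 0.14. Of 33 genes shared by macrophages and microglia 3 were higher and 1, Ctss, was lower, and 29 were not called, with a median of 0.05. The higher calls in this list are near the 8.17% of all probe sets. The higher genes were the pore-forming Mpeg1 (1.06 ± 0.14 (SE), limma adjusted p = 0.000380), the lysozyme Lyz2 (0.35 ± 0.10, limma adjusted p = 0.0280) and the complement subunit C1qc (0.31 ± 0.10, limma adjusted p = 0.0431). Ptprc, Itgam, Adgre1 and Aif1, which mark leukocytes or macrophages, had differences of 0.07, 0.01, 0.13 and 0.09 and were not called.

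The microglia list had 5 of 15 genes with a probe set of their own symbol, and the defining genes P2ry12 and Tmem119 were not analysed here. Selplg, a selectin ligand of microglia and leukocytes, was lower in liver (-0.55 ± 0.09 (SE), limma adjusted p = 0.00198), and the fractalkine receptor Cx3cr1 was not called (-0.00). At 1X the liver array had a summed linear signal of 59.6 over the 5 measured genes, below the cortex (108) and cerebellum (115) arrays. Median log2 signals of the list at 1X were 3.83, 3.96 and 3.84 for the same arrays. At 3X the sums overlapped, with 63.4 to 74.2 for liver against 69.3 to 82.6 for cortex and 71.6 to 81.4 for cerebellum. The 1X difference was not tested.

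Among 10 measured genes of sinusoidal endothelium, Stab1 and coagulation factor F8 were higher in liver and none was lower (median 0.20). Without the member Stab1, 1 of 9 was higher, with a median of 0.18. F8, which these cells secrete, differed by 0.73 ± 0.11 (SE; limma adjusted p = 0.000840) and by 0.74 on the 1X arrays. The Fc receptor Fcgr2b stood at 4.16 in liver, 2.72 in cortex and 2.66 in cerebellum at 1X, a difference of 1.47. At 3X its difference was 0.22 and was not called (limma adjusted p = 0.0617), and its interaction of amplification with tissue was called (F = 34.3, limma adjusted p = 0.000904), as for Cd5l. Of 22 pan-endothelial genes Eng alone was called, and the list median was 0.05. Pecam1, Cdh5, Kdr and Tek, an adhesion molecule, a cadherin and receptors of vessel growth factors, had differences of 0.05, 0.23, 0.10 and -0.06. Of 8 brain endothelial genes Itm2a was lower in liver (-0.50 ± 0.13 (SE), limma adjusted p = 0.0175), and the tight-junction gene Cldn5 was not called (-0.23, limma adjusted p = 0.232).

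**Figure D4:**
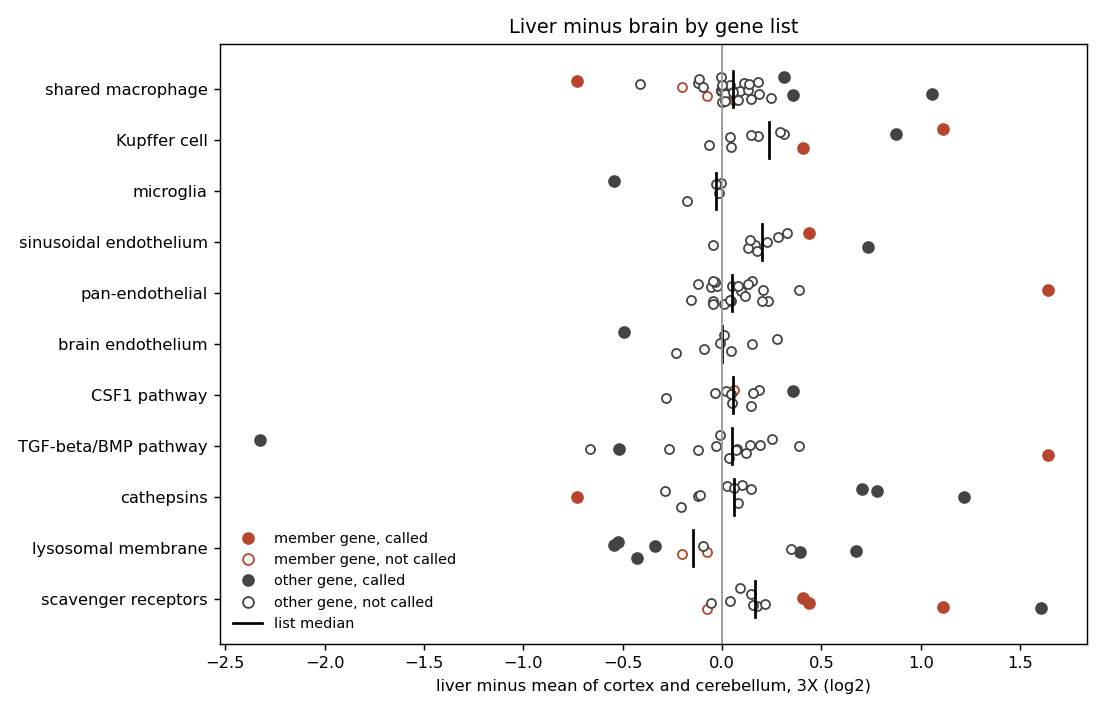
Liver minus brain difference at 3X (log2) of every measured gene in 11 lists, with filled dots for genes called by limma, members in red and list medians as bars. The Kupffer cell and sinusoidal endothelium lists have medians of 0.24 and 0.20, while the shared macrophage, pan-endothelial and microglia lists have medians of 0.05, 0.05 and -0.03. These medians include the members. Without the members they are 0.16, 0.18, 0.06, 0.05 and -0.03 in the same order.

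The partners of the receptors were counted in the same way, beside the same shares of 8.17% higher and 12.3% lower over all probe sets. Of 10 genes of the CSF1 pathway, Inpp5d, a phosphatase that limits signalling, was called higher in liver (0.36 ± 0.11 (SE), limma adjusted p = 0.0410). The ligand Csf1 differed by -0.28 (limma adjusted p = 0.121), and Spi1, which encodes PU.1, by 0.14 (limma adjusted p = 0.279). In the TGF-beta and BMP pathway Eng was higher, and Bmpr2 and Tgfb2 were lower, out of 16 genes. Bmpr2, the type II BMP receptor, had mean 3X signals of 1.62 in liver, 4.25 in cortex and 3.65 in cerebellum (-2.33 ± 0.13 (SE), limma adjusted p = 3.94e-07). The ligand Tgfb2 differed by -0.52 ± 0.09 (SE; limma adjusted p = 0.00167). Acvrl1, the type I receptor that works with endoglin, differed by 0.39 (limma adjusted p = 0.175) and rose by 1.02 ± 0.19 with the 3X procedure (limma adjusted p = 0.00127).

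Ctss stood apart in direction from the other called cathepsins. Of 13 measured cathepsin genes 3 were higher in liver, Ctsz by 1.22 ± 0.19 (SE; limma adjusted p = 0.000941), Ctsh by 0.78 ± 0.16 (limma adjusted p = 0.00562) and Ctsl by 0.70 ± 0.17 (limma adjusted p = 0.0120), and Ctss alone was lower. At 1X these 3 differed by 2.52, 2.83 and 2.88. Of 10 lysosomal membrane genes 2 were higher and 4 lower in liver. The cholesterol transporter Npc1 was higher by 0.67 (limma adjusted p = 0.00773), and the tetraspanin Cd63 was lower, with a difference of -0.55 (limma adjusted p = 0.0121). Laptm4a and Laptm4b, relatives of Laptm5, were lower, with a difference of -0.34 ± 0.10 (SE; limma adjusted p = 0.0338) and -0.43 ± 0.12 (SE; limma adjusted p = 0.0259). In the 3X procedure 7 of these 10 genes fell and 1, Laptm5 by its brighter probe set, rose. Over all probe sets, 19.5% were called lower and 37.5% higher at 3X. Laptm4a fell by 2.73 ± 0.17 (SE; limma adjusted p = 6.86e-07).

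Among 12 measured scavenger and lectin receptors, Clec4f, Cd5l, Stab1 and the hepatocyte lectin Asgr1 were higher in liver and none was lower. Without the members, 1 of 8 was higher, with a median of 0.15, where 8.17% of all probe sets were higher. Asgr1, part of the asialoglycoprotein receptor, differed by 1.60 ± 0.24 (SE; limma adjusted p = 0.000740) at 3X and by 5.05 on the 1X arrays. Over the 12 arrays, which share 3 tissues and 2 procedures, the profiles most like Clec4f were those of Afm, Cyp2e1 and C9 (Pearson's r of 0.982, 0.982 and 0.981). For Cd5l they were Agxt, Pemt and Cyp2a12 (0.992, 0.990 and 0.988), for Ctss Ubl3, Higd2a and Cript (0.964, 0.946 and 0.943), for Eng Fn1, Gimap4 and Aldh2 (0.973, 0.965 and 0.965), and for Laptm5 161819_f_at Tpm3, Pla2g4f and Polr2l (0.966, 0.955 and 0.955). These values describe likeness among 2991 probe sets whose group means spanned at least 1. Csf1r, Cd68 and Stab1 spanned less and were not compared.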

How the data were processed

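The authors deposited log2 signals per probe set made with RMA, per the submitters' processing notes. RMA corrects background, equalises the probe distributions of arrays and summarises probes. Its version, the log base and whether the 12 arrays were processed together are unknown here, and the base was taken from the range of the values. Precision is limited by how many arrays there are. The 66 control probe sets were left out of the tests. Genes were named from probe sets with 1 symbol in the platform annotation (10833 of 12422), and no symbol changed against a RefSeq table of GRCm38.p6.

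Tests used limma 3.58.1 under R 4.3.3 (moderated, two-sided, Benjamini-Hochberg over 12422 probe sets). Tissues were compared in a fit of the 9 3X arrays, amplification in an additive model with tissue over 12 arrays, and its dependence on tissue by a moderated F test over 6 group means. At 1X, values are given without a test. The scripts were tested on simulated arrays. Alternatives were quantile normalization, median centring, testing the brighter probe sets only, a trended and robust variance prior, a block on replicate number, fits over more or fewer arrays, and leaving out each array or tissue. Named genes were the members, up to 4 called genes per list by the size of the liver minus brain difference, the measured genes of the pathway and cell type lists where needed, and 3 genes of the most similar profile per member. The members and the 17 gene lists were chosen with earlier results of these data known. The kidney genes were added later, and Ptprc, Itgam, Adgre1, Aif1, Pecam1, Cdh5, Kdr, Tek, Cldn5, Laptm4a, Ttr and Cd3g were named after their values were seen.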

Additional observations from a re-analysis of the deposited data

Results flagged for a closer look

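The effect of the 3X procedure on Cd5l differed between tissues (moderated F = 74.9, limma adjusted p = 7.84e-05). Its signal was lower at 3X by 1.63 in liver and higher by 0.27 in cortex and 0.37 in cerebellum. Leaving out each 3X array in turn gave F from 63.7 to 87.8. That range could not probe the 1X liver array (4.73), which has no replicate and stayed in every fit. Its own error is unknown, and the F test borrows the spread seen at 3X. As a single contrast of liver against brain, chosen after seeing the data, the difference was -1.95 ± 0.16 (SE; limma adjusted p = 2.16e-05). Over all probe sets, 10.4% were called by the F test and 13.2% by the single contrast.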

How the results depend on the processing

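Leaving out an array or tissue in turn gave ranges of 2008 to 2905 probe sets (5 to 7 members) for liver against brain, 3 (without cortex replicate 3) to 6 members against cortex, 82 to 250 probe sets between cortex and cerebellum, 4337 to 7125 probe sets (2 to 6 members) for amplification, and 1 to 2 members for its interaction with tissue. The lowest amplification count came without the cerebellum arrays, and the 6 members came without the liver arrays. Between cortex and cerebellum the count was 250 without liver replicate 3, 82 without cerebellum replicate 2 and 86 without cerebellum replicate 3. Among probe sets above the median level, which include 5 of the 11 members, counts fell because fewer were tested, to 1607 probe sets and 1 member for liver against brain, 1347 and 1 against cortex, 1341 and 1 against cerebellum, 3685 for amplification, and 804 and 0 for the interaction. With the 6 cortex and cerebellum arrays alone 262 probe sets were called, and with tissues as units 4690 for amplification; the cause was not tested. In the additive fit of 12 arrays Cd5l was no longer called against cortex (0.87, limma adjusted p = 0.0731) or cerebellum (0.92, limma adjusted p = 0.0604).

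Sign changes occurred for values that were not called in the main analysis. For amplification under quantile normalization these were Clec4f (-0.033), Csf1r 104354_at (0.063), Cd68 162173_i_at (-0.027) and Laptm5 100012_at (-0.087), and Cd68 103016_s_at was then called (0.22, limma adjusted p = 0.0219). Without the liver arrays they were Cd5l (0.32) and Laptm5 100012_at (-0.033), without the cortex arrays Clec4f (-0.068) and Csf1r 104354_at (0.024), and without the cerebellum arrays Clec4f (-0.075). With 1 array left out, Csf1r 104354_at ranged from -0.11 to 0.23 and Cd68 162173_i_at from -0.036 to 0.038 for liver minus brain, and Csf1r 104354_at from -0.082 to 0.023 for amplification. The 5 called liver minus brain differences kept their direction and call in every alternative in which they were tested. Among the probe sets above the median level, Eng alone of these 5 was tested, because the others lay below that level. The labels give same-numbered arrays no shared source beyond the single mouse, and the values did not meet the criterion for pairing, a correlation over 0.1 in every pair. Deviations of same-numbered arrays correlated at -0.0991 to 0.342, over 0.1 in 5 of 9 pairs, against -0.359 to 0.248 for other pairs, and 6 of 9 arrays correlated best with their own number. The 3 pairs of replicate 3 had 0.342, 0.294 and 0.297, a hint from the data that some same-numbered arrays share a deviation. A replicate block gave 2729 probe sets and 5 members for liver against brain and 170 and 0 between cortex and cerebellum, and it changed no call of a member.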

Other observations

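Markers of other blood and stromal cells were counted between liver and brain at 3X, where 20.4% of all probe sets were called. Of 11 measured lymphocyte genes Cd2 was higher in liver (0.27 ± 0.08 (SE), limma adjusted p = 0.0436), and of 10 neutrophil genes Elane was (0.40 ± 0.08, limma adjusted p = 0.00657). Of 10 stellate cell and pericyte genes Acta2 was lower in liver (-0.71 ± 0.18, limma adjusted p = 0.0151). Alpha-globin (Hba-a1) was lower in liver, with a difference of -0.99 ± 0.12 (limma adjusted p = 0.00015), and among 5 erythroid genes Epb42 was higher (0.30 ± 0.09, limma adjusted p = 0.0425).

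Between procedures, the lymphocyte list had the largest share of higher calls of these 4 lists. At 3X, 10 of 11 lymphocyte genes were called higher than at 1X and none lower, with a median of 0.40, where 37.5% of all probe sets were called higher and the median of all was 0.12. Cd2, an adhesion molecule of T cells, rose by 0.68 and Cd3g, a subunit of the T cell receptor complex, by 0.60, in tissues where both were dim. Of the neutrophil genes 5 of 10 were higher, of the stellate cell and pericyte genes 3 of 10, with 1 lower, and of the erythroid genes 1 of 5, with 1 lower. Hba-a1 fell by 3.07, from 6.82, 7.51 and 9.19 in liver, cortex and cerebellum at 1X to means of 4.11, 4.61 and 5.59.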
